A study of Mus musculus with 6 samples.

Results

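The genes described here are 8 genes of neurotrophin signalling and of activity-dependent secretion in the mouse hippocampus. The rule that picks them uses the gene symbol alone, although the set was proposed with earlier results of these data known, and each of the 8 was found on 1 row of the deposited table of 16060 rows. They are the ligands Bdnf and Ntf3, the receptors Ntrk2 and Ntrk3, the sorting receptor Sort1, and the secreted or surface-released products of Vgf, Scg2 and Nrn1. Hippocampal RNA came from C57BL/6 mice, described in the methods as adult males, of which 3 in the control group had received saline injections and 3 in the methamphetamine (MA) group had been injected with MA for 3 weeks, at 5 mg/kg in week 1, 10 mg/kg in week 2 and 15 mg/kg in week 3. The open field and elevated plus maze tests were held on day 22, and the tissue was taken right after them, so every library, control or MA, comes from a mouse that had just been handled and tested. Each direction given here rests on the sample labels, and MA or Control library means a library so labelled. In the table as labelled, the activity-induced genes Fos and Arc were lower in each MA library than in each Control library, with log2 differences of -1.61 and -1.80 (limma adjusted p = 0.0315 and 0.0181). The study's text describes such genes as going the opposite way in MA mice. It also reports qPCR on 3 samples from each group, in which Fos, Egr1, Arc and Nr4a1 were higher with MA. The study's supplementary list of changed genes, headed Control vs Meth-treated mice, gives positive fold changes for Fos and Arc. That heading does not say which group was divided by which. Which of these reports and the column labels is right could not be settled here. Exchanged labels would turn every direction below, that of the activity-induced Bdnf included.

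Neurotrophins are made as precursors, are cut by proprotein convertases, and bind tyrosine kinase receptors of the Trk family. Brain-derived neurotrophic factor, the product of Bdnf, is the ligand of TrkB (Ntrk2), and neurotrophin-3, the product of Ntf3, is the main ligand of TrkC (Ntrk3). Sortilin, the product of Sort1, sorts pro-BDNF into the regulated secretory pathway and is a co-receptor for proneurotrophins. Vgf and Scg2 (secretogranin II) encode granin-like proteins of dense-core vesicles that are cut into several peptides, and Nrn1 encodes neuritin, a small glycolipid-anchored protein that promotes neurite growth. Transcription of Bdnf, Vgf, Scg2 and Nrn1 is known to be raised by neuronal activity, in part through CREB, a factor that binds the cyclic AMP response element (CRE). In the hippocampus Bdnf is made by granule and pyramidal neurons, Ntf3 mainly by dentate granule cells, and truncated TrkB largely by astrocytes.

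The promoter sequences are shown because CREB binding is the best known link between activity and these genes. Windows of 250 bases before to 50 bases after an annotated start were searched in RefSeq's promoters of GRCm38.p6 on both strands. Of the 8 genes, 4 were matched by symbol: Bdnf with 7 windows, Ntf3 with 2, and Ntrk2 and Scg2 with 1 each. The full CRE, TGACGTCA, was found in 1 of these 11 windows, that of Scg2, against 1.79% of all 32851 windows. The shorter CRE core, TGACG, is held on each strand of a full CRE because the element is its own reverse complement, and it was found in the Scg2 window and in the third of the 7 Bdnf windows, against 20.8% of all windows. The Bdnf match is read on the opposite strand, so it appears as CGTCA. The stretches below run from 120 bases before the start to the base before it, with the CRE core matches in capitals.
Bdnf, chr2:109692316-109692435, plus strand: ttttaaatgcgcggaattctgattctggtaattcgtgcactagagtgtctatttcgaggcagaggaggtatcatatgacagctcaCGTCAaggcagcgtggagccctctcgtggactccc
Scg2, chr1:79440027-79440146, minus strand: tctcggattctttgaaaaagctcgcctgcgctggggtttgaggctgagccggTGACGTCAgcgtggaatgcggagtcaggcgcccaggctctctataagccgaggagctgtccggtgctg
The capitals start 35 bases before the start site in Bdnf and 68 bases before it in Scg2. Neither the AP-1 site TGACTCA, present in 5.2% of all windows, nor the EGR site GCGTGGGCG, present in 0.612%, was found in the 11 windows, and the E-box CACGTG, present in 7.15%, was found in 1 window of Ntf3. A match or its absence describes these letters only, and the table gives 1 value per gene, which does not tell which Bdnf promoter was in use.

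The deposited values were taken as log2 of a length-normalized read count (RPKM) plus 1, and levels were compared between genes on that basis. The gene lengths used are not described, and the order of levels between genes depends on them. Annotated exonic bases run from 1714 in Ntf3 to 30170 in Ntrk3. The highest deposited value was 12.3 in each of the 6 libraries, which had been brought to near-equal distributions, and the depth of each library is unknown. All 8 genes passed the minimum used for testing, an RPKM of 0.5 or more in 3 or more libraries, as did 13321 rows in all. Differences are the mean of the MA libraries minus the mean of the Control libraries on this log2 scale, tested with limma and adjusted by the Benjamini-Hochberg method over the 13321 genes. With 3 libraries against 3, an exact two-sided permutation test cannot give a p-value under 0.1.

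Neuronal markers were well expressed in every library, with summed back-transformed levels of Rbfox3, Snap25, Syt1, Map2, Slc17a7 and Gad1 between 2170 and 2353 in Control and between 1865 and 2502 in MA. All 8 of 8 choroid plexus markers were higher in each MA library than in each Control library. Their summed level was 65.8 to 421 in Control and 1779 to 5084 in MA, and 5 of the 8 passed an adjusted p under 0.05 (limma). All 5 of 5 red blood cell markers behaved alike, with sums of 1599 to 2024 and 3319 to 4378, and 3 of them passed. The 4 endothelial markers had sums of 46.2 to 49.2 in Control and 52.5 to 63.9 in MA, and none passed. Thalamic markers summed to 47.5 and 62.8 in MA replicates 1 and 2 and to 20.4 in MA replicate 3, against 22 to 26.0 in Control. MA replicate 3 also had the lowest sums of the neuronal and the astrocyte markers, at 1865 and 246, while the lowest sums among the other 5 libraries were 2170 and 303. No marker of these lists was at 0 in any library. Tissue from outside the hippocampus, cell number and RNA per cell cannot be told apart in bulk RNA, and the part of these markers in the differences below was not tested.

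**Figure D1:**
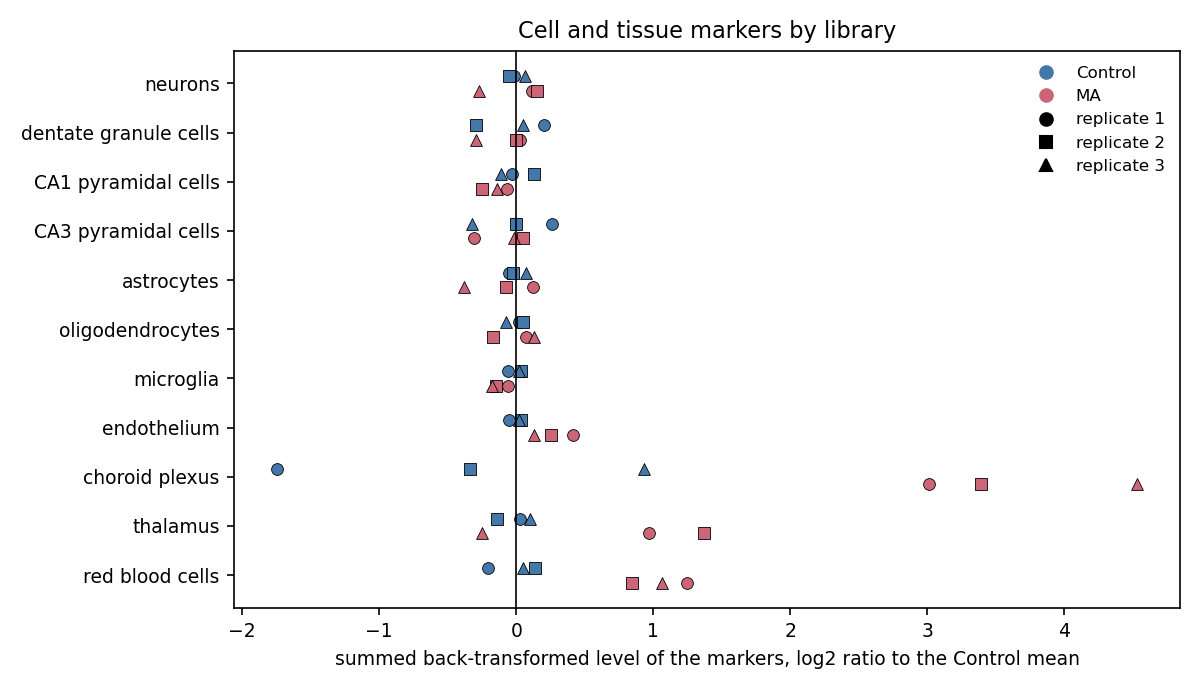
Summed back-transformed level of each marker list in each library, as the log2 ratio to the mean of the 3 Control libraries (blue, Control; red, MA; marker shape, replicate). The choroid plexus sums ranged from 65.8 to 421 in Control and from 1779 to 5084 in MA, while the sums of the neuronal markers overlapped between the groups.

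Among the 8 genes, Bdnf was lower and Ntrk3 higher in every library labelled MA than in every library labelled Control, with the doubt about the labels given above. The other 6 genes had overlapping groups. None of the 8 passed an adjusted p under 0.05 (limma), a threshold that 0.263% of the 13321 genes passed. At an unadjusted p under 0.05, which 10.4% of all tested genes reached, 2 of the 8 genes passed, Ntrk3 and Bdnf. Ntrk3 was 1 gene among the 4.99% of the table that reached it and were higher in MA, and Bdnf 1 among the 5.46% that were lower. Groups that do not overlap were found for the same 2 genes of 8, against 17.5% of all tested genes, 7.32% higher and 10.2% lower in MA. At the rates of the whole table, 8 genes would hold 0.836 with such a p and 1.4 without overlap, so the counts of 2 do not set the 8 genes apart. The median difference of the 8 genes was -0.10, and that of all tested genes was -0.010. In all, 6 of the 8 differences were negative and 2 positive.

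**Figure D2:**
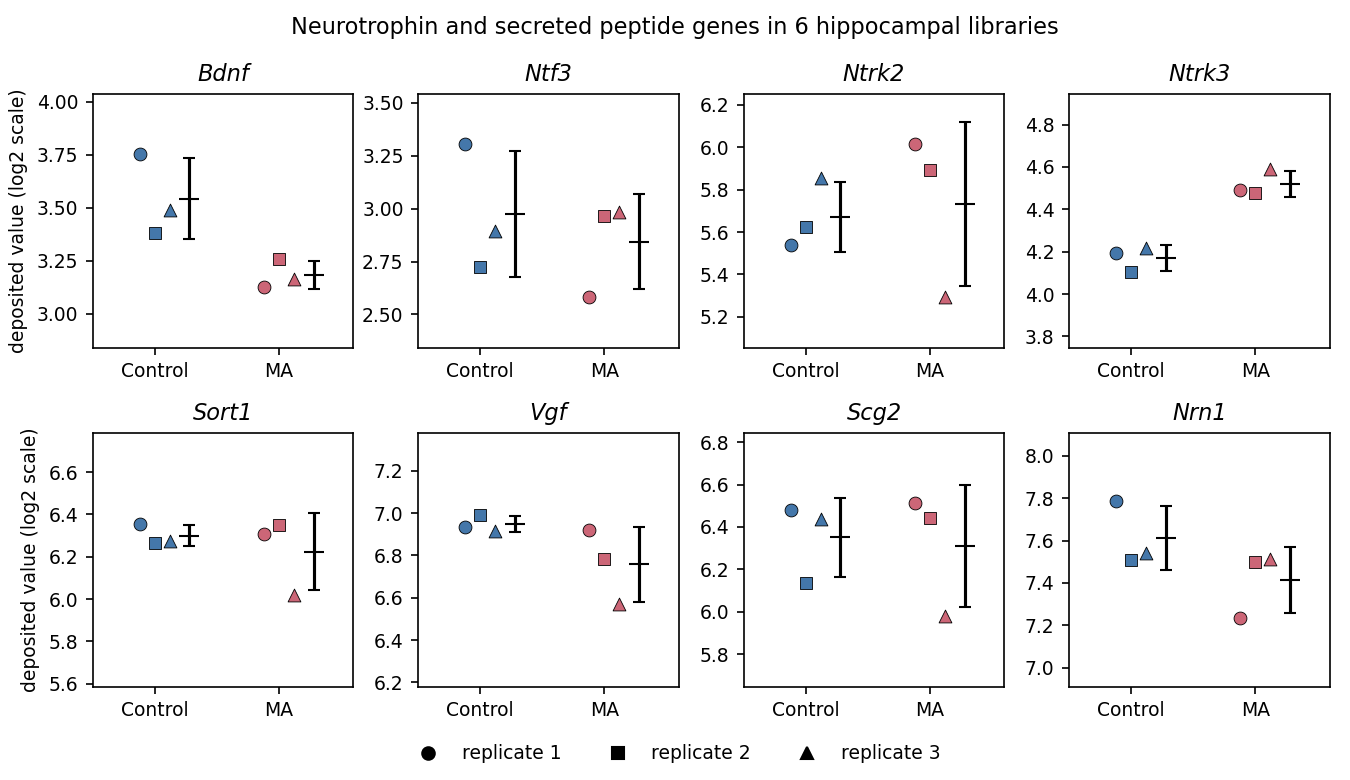
Deposited log2-scale value of each of the 8 genes in the 3 Control (blue) and 3 MA (red) libraries, with marker shape for the replicate and bars for the mean ± SD of each group. Every panel spans the same range on the vertical axis. Bdnf was lower and Ntrk3 higher in all 3 MA libraries, and MA replicate 3 was the lowest of the 6 libraries for Ntrk2, Sort1, Vgf and Scg2.

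The ligand genes had the lowest values of the 8. Bdnf (ENSMUSG00000048482) spans 109674700 to 109727007 on the plus strand of chromosome 2 in GRCm38, with 11 annotated transcripts. Its values were 3.75, 3.38 and 3.49 in Control replicates 1, 2 and 3 and 3.13, 3.26 and 3.17 in MA replicates 1, 2 and 3. The highest MA value lay 0.13 below the lowest Control value, and the spread was wider in Control, where replicate 1 stood above the other two. The means were 3.54 ± 0.19 and 3.18 ± 0.07 (SD, n = 3 each), a difference of -0.36 (standard error 0.12, 95% interval -0.63 to -0.085). This corresponds to 0.779 times the Control level on the scale of the value plus 1, and it did not pass the adjusted threshold (limma adjusted p = 0.354). The exact permutation p was 0.1, the smallest that 6 libraries allow. The difference was -0.35 without MA replicate 3 and -0.25 without Control replicate 1, where the unadjusted limma p was 0.0604. Without MA replicate 1 it was -0.33, with an unadjusted limma p of 0.0502.

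Ntf3 (ENSMUSG00000049107, chromosome 6, 126101412 to 126166910, minus strand) had values of 3.30, 2.72 and 2.89 in Control and 2.58, 2.96 and 2.99 in MA, in replicate order. The groups overlapped, with Control replicate 1 the highest and MA replicate 1 the lowest of the 6 libraries. The difference was -0.13 (standard error 0.18, 95% interval -0.55 to 0.29, limma adjusted p = 0.862), smaller than the SD within the groups of 0.265. A change of the size seen for Bdnf lies inside this interval, and the data do not show that Ntf3 stayed level.

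Of the receptors, Ntrk3 (ENSMUSG00000059146, chromosome 7, 78175959 to 78738012, minus strand) gave the smallest p-value of the 8 genes. Its values were 4.20, 4.10 and 4.22 in Control and 4.49, 4.48 and 4.59 in MA, in replicate order. The lowest MA value lay 0.26 above the highest Control value, and both groups were tight. The pooled SD within the groups was 0.0619, lower than that of all but 7.55% of the tested genes, whose median was 0.151. The means were 4.17 ± 0.06 and 4.52 ± 0.06 (SD, n = 3 each), a difference of 0.35 (standard error 0.08, 95% interval 0.16 to 0.54). On the scale of the value plus 1 the MA level was 1.27 times the Control level. The limma p was 0.00347, rank 208 of 13321, and the adjusted p was 0.219. With limma's sample quality weights, which gave less weight to variable libraries, the adjusted p was 0.0396, and 586 genes of the table passed under that setting against 35 in the unweighted fit. Leaving out any 1 library kept the difference between 0.31 and 0.37.

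Beside this result, the library with the highest choroid plexus sum, MA replicate 3, had a Ntrk3 value of 4.59, and the MA libraries with the lower sums had 4.49 and 4.48. Among the Control libraries, the choroid plexus sum was 65.8, 174 and 421 in replicates 1, 2 and 3, while Ntrk3 was 4.20, 4.10 and 4.22. The thalamic sum was 47.5, 62.8 and 20.4 in MA replicates 1, 2 and 3, against 22 to 26.0 in Control. Ntrk3 in these MA libraries was 4.49, 4.48 and 4.59. For Bdnf, MA replicate 3 had a value of 3.17, between those of MA replicates 1 and 2. The part of either tissue in the Ntrk3 and Bdnf differences was not tested.

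Ntrk2 (ENSMUSG00000055254, chromosome 13, 58806569 to 59133970, plus strand) showed no common direction. The values were 5.54, 5.62 and 5.85 in Control and 6.02, 5.89 and 5.29 in MA, in replicate order, so the MA libraries included both the highest and the lowest of the 6. The difference was 0.062 (standard error 0.19, 95% interval -0.38 to 0.51, limma adjusted p = 0.944). The SD within the groups was 0.297, as large as or larger than that of 87.8% of the tested genes. Without MA replicate 3 the groups did not overlap and the difference was 0.28 (standard error 0.11, limma adjusted p = 0.176). In that fit 3 of the 8 genes, Ntrk2 with Bdnf and Ntrk3, had an unadjusted p under 0.05, as did 23.3% of all tested genes, and the groups did not overlap for 42.9%. Full-length and truncated TrkB, which differ in whether they carry the kinase, are summed in this 1 value.

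Sort1 (ENSMUSG00000068747, chromosome 3, 108284082 to 108361511, plus strand) had values of 6.36, 6.27 and 6.27 in Control and 6.31, 6.35 and 6.02 in MA, in replicate order. The other 5 libraries lay within a range of 0.090, and MA replicate 3 was apart from them on the low side. The difference was -0.074 (standard error 0.10, 95% interval -0.32 to 0.17, limma adjusted p = 0.863), and without MA replicate 3 it was 0.030.

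Among the activity-regulated secreted products, Nrn1 and Vgf had lower means in MA with overlapping groups, and Scg2 had near-equal means. Vgf (ENSMUSG00000037428, chromosome 5, 137026392 to 137033351, plus strand) had values of 6.94, 6.99 and 6.92 in Control and 6.92, 6.78 and 6.57 in MA, in replicate order. The Control libraries lay close together, MA replicate 1 lay among them, and MA replicates 2 and 3 were lower. The difference was -0.19 (standard error 0.10, 95% interval -0.42 to 0.046, limma adjusted p = 0.578). It was -0.096 without MA replicate 3.

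Nrn1 (ENSMUSG00000039114, chromosome 13, 36725361 to 36735131, minus strand) had the highest values of the 8 genes. Its values were 7.79, 7.51 and 7.54 in Control and 7.23, 7.50 and 7.51 in MA, in replicate order. The means differed through Control replicate 1, the highest, and MA replicate 1, the lowest, while the other 4 libraries lay between 7.50 and 7.54. The difference was -0.20 (standard error 0.11, 95% interval -0.46 to 0.066, limma adjusted p = 0.606). Without Control replicate 1 it was -0.11, and without MA replicate 1 it was -0.11. Without MA replicate 3 the groups of Nrn1 did not overlap, as for 42.9% of all tested genes, and the difference was -0.25 (limma adjusted p = 0.250).

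Scg2 (ENSMUSG00000050711, chromosome 1, 79434669 to 79440120, minus strand), the gene with the full CRE in its promoter window, had values of 6.48, 6.14 and 6.44 in Control and 6.51, 6.44 and 5.98 in MA, in replicate order. The groups covered each other, with 1 low library in each. The difference was -0.040 (standard error 0.16, 95% interval -0.41 to 0.33, limma adjusted p = 0.956), and it was 0.12 without MA replicate 3.

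**Figure D3:**
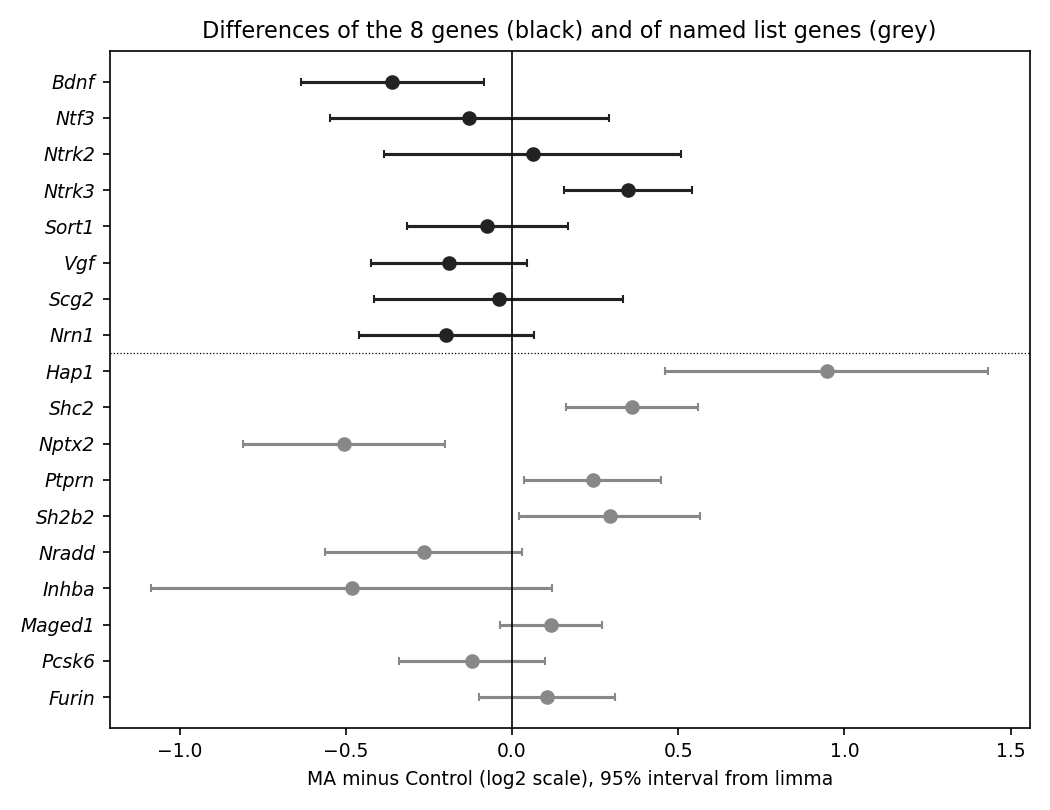
Difference between MA and Control on the log2 scale with its 95% interval from limma for the 8 genes (black) and for the 10 named genes of the related lists (grey). Of the black intervals, those of Bdnf (-0.63 to -0.085) and Ntrk3 (0.16 to 0.54) leave out 0.

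The order of the levels was nearly the same in all 6 libraries. Mean levels over the 6 libraries ran from Nrn1 (7.51) through Vgf (6.85), Scg2 (6.33), Sort1 (6.26), Ntrk2 (5.70), Ntrk3 (4.35) and Bdnf (3.36) to Ntf3 (2.91). Scg2 and Sort1 did not differ beyond their spread: Scg2 was the higher of both in 4 of 6 libraries and their means were 0.070 apart. Bdnf was above Ntf3 in 6 of 6 libraries, although the ranges of the genes over the libraries overlapped. The ranges of all other neighbours in this order were separate. Nrn1 was higher than 96.6% of the tested genes and Ntf3 higher than 42.4%.

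Across the 6 libraries 7 of the 8 genes fell into 2 sets that varied together, which is a description of 6 libraries that share 2 groups and 1 normalization. Ntf3 and Nrn1 had a Pearson r of 0.916, and 0.981 after each group's mean was removed, and Bdnf correlated with Nrn1 at 0.865 and with Ntf3 at 0.705. All 3 were highest in Control replicate 1 and lowest in MA replicate 1. The share of all tested genes with that pattern was not computed, so it does not set these 3 genes apart. The other set was Ntrk2, Sort1, Vgf and Scg2, which were lowest in MA replicate 3, as were 29.8% of all tested genes. Sort1 and Scg2 correlated at 0.861 and Ntrk2 and Scg2 at 0.782. Lower values in this set were 0.567 for Vgf and Scg2 and 0.526 for Ntrk2 and Vgf. Between the sets Bdnf and Vgf reached 0.496, so the sets were not sharply apart. After each group's mean was removed these 3 values were 0.677, 0.831 and -0.167. Before such centring Ntrk3 was in neither set, with an r between -0.803, to Vgf, and -0.0228, to Ntrk2. After each group's mean was removed, its r was 0.32 to Bdnf, 0.464 to Nrn1 and 0.531 to Ntf3. To Ntrk2, Sort1, Vgf and Scg2 it was then -0.522, -0.611, -0.764 and -0.221.

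Beside these values, the summed level of the dentate granule cell markers Prox1, Dsp, C1ql2, Lct, Tdo2 and Calb1 was 157, 111 and 141 in Control and 139, 136 and 111 in MA, in replicate order. The sum was highest in Control replicate 1, the library in which Bdnf, Ntf3 and Nrn1 were highest. The sum was lowest in MA replicate 3 and close to it in Control replicate 2, both at 111, and was 139 in MA replicate 1. Single markers differed from the sum. Calb1 was highest in MA replicate 1, at 6.21, and the other markers were highest in Control replicate 1. The lowest library was MA replicate 1 for Dsp and Lct and MA replicate 3 for Prox1 and Calb1. It was MA replicate 2 for C1ql2 and Control replicate 2 for Tdo2. None of the 6 markers passed an adjusted p under 0.05 (limma), and 1, Lct, had an unadjusted p under 0.05. For the 4 CA1 markers the sums were 125 to 148 in Control and 114 to 129 in MA. Of these, Wfs1 and Pou3f1 were lower in every MA library, as were 10.2% of all tested genes. Their differences were -0.30 and -0.47 (limma adjusted p = 0.413 and 0.344). The other CA1 markers, Fibcd1 and Mpped1, had overlapping groups and differences of -0.077 and 0.021. The 4 CA3 markers had sums of 73.4 to 110 in Control and 74.2 to 94.9 in MA. Of these, Grik4 was higher in every MA library (difference 0.35, limma adjusted p = 0.354), as were 7.32% of all tested genes. Bok, Iyd and Cdh24 had overlapping groups. The part of the subfield makeup in the Bdnf difference was not tested.

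The genes whose pattern over the 6 libraries was most like that of Bdnf were Fam174b, Jade3 and Epha7, with Pearson r of 0.993, 0.992 and 0.992. For Vgf they were Tmtc2, Jade2 and Pcdha2 (r = 0.995, 0.994 and 0.991), for Scg2 Golga3, Kcnj11 and Adamts3 (0.996, 0.995 and 0.990), and for Nrn1 Dennd6a, Mtmr12 and Kdm2b (0.996, 0.996 and 0.992). An r of at least 0.9 was held by 275 tested genes to Bdnf (2.06%), 214 to Vgf (1.61%), 477 to Scg2 (3.58%) and 169 to Nrn1 (1.27%).

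Around the 8 genes, 85 genes of 4 related lists were examined, of which 81 passed the minimum and 4 did not. None of the 81 passed an adjusted p under 0.05 (limma), and 7, or 8.64%, had an unadjusted p under 0.05, against 10.4% of all tested genes. Of these 7, 4 were higher and 3 lower in MA. The groups did not overlap for 12, or 14.8%, against 17.5% of all tested genes. The median difference of the 81 genes was -0.028.

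**Figure D4:**
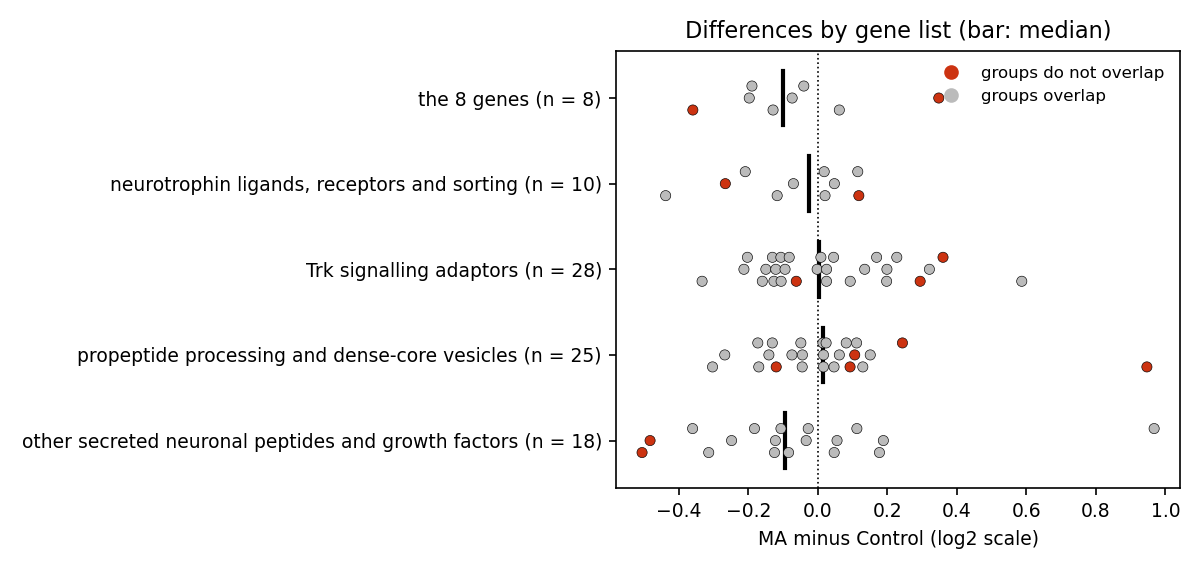
Difference between MA and Control on the log2 scale for the 8 genes and for the tested genes of the 4 related lists, each point a gene and each bar the median of its list. Red points are genes whose groups did not overlap, 2 of the 8 genes and 12 of the 81 list genes.

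Other ligands, receptors and sorting proteins of the neurotrophin family numbered 13, of which 10 were tested. The median difference was -0.026, with 5 higher and 5 lower in MA. Nradd and Maged1 had groups that did not overlap, with differences of -0.27 and 0.12 (limma adjusted p = 0.523 and 0.597).

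The 28 adaptors that couple Trk receptors to Ras, phosphoinositide 3-kinase and phospholipase C all passed the minimum. Their median difference was 0.0035, with 14 higher and 14 lower. Shc2, an Shc-family adaptor of the nervous system, was 3.44, 3.32 and 3.45 in Control and 3.75, 3.78 and 3.77 in MA, in replicate order, so the groups were apart by more than the range of either. Its difference was 0.36 (standard error 0.08, limma adjusted p = 0.219). Sh2b2 had a difference of 0.29 (limma adjusted p = 0.442), also without overlap.

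The list of propeptide processing and dense-core vesicle genes, through which pro-BDNF, Vgf and Scg2 products are cut and stored, had 25 tested genes with a median difference of 0.016, 14 higher and 11 lower. The convertase genes Pcsk1 and Pcsk2 had overlapping groups, with differences of -0.30 and -0.14 (limma adjusted p = 0.715 and 0.728). The granin genes Chga, Chgb and Scg3 had differences of 0.062, -0.17 and -0.074, also with overlap. For Furin and Pcsk6, other convertases, the groups were apart but the differences were small, 0.11 and -0.12 (limma adjusted p = 0.733 and 0.719).

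The largest of the differences in this list was that of Hap1, which encodes huntingtin-associated protein 1, a transport adaptor that binds pro-BDNF vesicles. It was 4.81, 4.94 and 5.25 in Control and 6.23, 6.13 and 5.48 in MA, in replicate order. MA replicate 3 was nearer to the Control libraries than to the other MA libraries. The difference was 0.95 (standard error 0.21, limma adjusted p = 0.199) and 1.18 without MA replicate 3 (adjusted p = 0.0248 in limma). In that fit 257 of all tested genes passed, against 35 with all 6 libraries, and 23.3% had an unadjusted limma p under 0.05. Hap1 was highest in the libraries whose thalamic sums were 47.5 and 62.8. In MA replicate 3, whose thalamic sum was 20.4, Hap1 was still above every Control library. A link between Hap1 and thalamic tissue was not tested. Ptprn, a dense-core vesicle membrane protein, was 6.89, 6.92 and 6.85 in Control and 7.19, 7.22 and 6.97 in MA. Its difference was 0.24 (limma adjusted p = 0.413). Without MA replicate 3 the limma adjusted p was 0.0485, in the fit where 257 genes passed. Of the fits that left out 1 library, this was the only 1 with an unadjusted limma p under 0.05 for Ptprn.

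Other secreted neuronal peptides and growth factors had 18 tested genes with a median difference of -0.095, 6 higher and 12 lower. Nptx2 encodes an activity-induced pentraxin that gathers AMPA receptors at synapses. Its values were 4.29, 4.08 and 4.19 in Control and 3.42, 3.79 and 3.84 in MA, in replicate order, so all MA libraries lay below all Control libraries. The difference was -0.51 (standard error 0.13, 95% interval -0.81 to -0.20, limma adjusted p = 0.252). Inhba, the activin A subunit gene, differed by -0.48 without overlap (standard error 0.26, limma adjusted p = 0.582), though its lowest Control value and its highest MA value both round to 1.26. The value rests largely on MA replicate 3, without which the difference was -0.21, and on Control replicate 1, without which it was -0.31.

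Counting could affect some of these values. The sources used here do not say whether counting used strand. Annotated genes on the opposite strand overlap the spans of Bdnf, Ntrk2, Ntrk3, Sort1 and Nrn1. Without strand, reads from bases shared with these genes could not be told apart. On the same strand, annotated genes overlap the spans of Ntrk2, Ntrk3 and Sort1, which strand would not resolve. Whether exons overlap was not examined. No annotated gene overlaps Ntf3, Vgf or Scg2.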

How the data were processed

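One library per mouse was made from the hippocampus of 3 Control and 3 MA mice; samples were grouped by title. Per the paper's methods, Hisat2 aligned the read pairs, featureCounts counted them, and FPKM was derived from gene length. The submitters' processing notes name Bowtie 0.12.2 with mm8 and mm9 instead, and the labels and the methods name different RNA and library kits. The authors deposited 1 table named as RPKM whose values were taken as log2 with an offset of 1. Neither the log transform nor the normalization between libraries is described. Depth is not in the table, so no interval from counting is given.

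Tests on these log2 values used limma 3.58.1 in R 4.3.3 (eBayes with trend, no covariate) over 13321 genes. For single genes an exact permutation test (two-sided) was added. Simulated tables of 13321 genes, with 200 changed by 1 on the log2 scale, gave a median recovery of 76.25% and 4.963% false calls for this comparison. No change as small as those of the 8 genes, between -0.36 and 0.35, was simulated, so this recovery does not describe them. Named genes were the 8 members, up to 10 list genes without overlap by smallest p, and the 3 genes of highest Pearson r to each of Bdnf, Vgf, Scg2 and Nrn1. The members and lists were chosen with earlier results of these data known. Bex3 is listed in the table as Ngfrap1. Gene coordinates are from GENCODE M21 on GRCm38 and promoters from RefSeq on GRCm38.p6; both serve location only. Labels do not say more of the mice than group and strain, so p-values measure the spread between these libraries. Some genes of the related lists are counted but not reported here by name.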

Additional observations from a re-analysis of the deposited data

How the results depend on the processing

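Of the 8 genes, none passed the adjusted threshold under 14 of 15 alternatives, and 1, Ntrk3, passed with sample quality weights. With those weights 7 genes of the related lists passed in place of 0 and 586 of all genes in place of 35. All genes passing numbered 3 with no filter, 20 with a minimum mean of 5 and, with the replicate number as a block, 15. Same-numbered libraries deviated from their group means at r = -0.197, -0.242 and -0.337. These r give no sign that the numbers pair the mice, though so few values cannot exclude it. The block changed no call among the 8 genes or the related lists. Leaving out 1 library in turn gave 0 to 257 of all genes, 0 to 5 list genes and 2 to 4 of the 8 genes without overlap; 257, 5 and 4 came without MA replicate 3, where 42.9% of all tested genes had no overlap, a share at which 8 genes would hold 3.43. The 4 were Bdnf, Ntrk2, Ntrk3 and Nrn1, and the 5 included Hap1, Shc3, Ptprn and Ptprn2. Bdnf, Ntrk3, Vgf and Nrn1 kept their direction under all 15 alternatives, Bdnf between -0.44 and -0.25 and Ntrk3 between 0.31 and 0.37. In the same leave-one-out fits Ntf3 lay between -0.25 and 0.036, Ntrk2 between -0.079 and 0.28, Sort1 between -0.14 and 0.030 and Scg2 between -0.15 and 0.12, so all 4 changed sign. Sample quality weights also turned Sort1 to 0.029 and Scg2 to 0.12. The cause was not tested. Without depth, the counting error of low genes such as Ntf3 is unknown.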

Other observations

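Some genes of the related lists that did not reach the minimum were low in both groups. Ntf5, the neurotrophin-4 gene, had values of at most 0.244 in Control and 0.581 in MA. Ngfr, the low-affinity neurotrophin receptor gene, lay between 0.176 and 0.462 in Control and between 0.415 and 0.55 in MA. Gdnf, the glial cell line-derived neurotrophic factor gene, lay at or under 0.145 in every library.

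Tac2, which encodes the neurokinin B precursor and was chosen after its values were seen, had the widest difference of the secreted peptide list. Its values were 3.01, 3.41 and 4.86 in Control and 4.98, 4.53 and 4.67 in MA, in replicate order. Control replicate 3 lay among the MA libraries, and the difference was 0.97 (standard error 0.43, limma adjusted p = 0.495). Control replicate 3 was also the Control library with the highest choroid plexus sum, 421. Among the MA libraries Tac2 was highest in replicate 1, where that sum was lowest, at 1779. The sum was highest in MA replicate 3, at 5084. A link between Tac2 and this sum was not tested.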
